A study of Venturia canescens with 6 samples.

Results

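The gene models described here are the 234 models of the head transcriptome of the parasitoid wasp Venturia canescens that are numbered from g20001 on and were expressed, with at least 2 CPM (counts scaled to a library of 1000000) in at least 3 of 6 libraries. They are 234 of the 2333 models with such numbers (10%) and of 22333 models in all. RNA was sequenced from heads of adult females taken at emergence, with 3 pools of 30 heads from a sexual population (sexual replicates 1 to 3) and 3 from an asexual population (asexual replicates 1 to 3). The pools of a population were biological replicates in the design text, and the source names of all 6 libraries share 1 run and lane mark. No strain, site or rearing host was named in the labels, so that reproductive mode and any other difference between the populations cannot be told apart. The models were chosen by their number and by the measured counts of these 6 libraries. The start of the number range was set with the share of differing models known from an earlier analysis of the same libraries, so counts of differing models are a description here, and nothing is read from them.

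Venturia canescens lays its eggs in moth larvae. In sexual wasps of this kind, fertilised eggs become daughters and unfertilised eggs become sons, while asexual females produce daughters without mating. The head holds the brain, eyes, antennae and mouthparts, the organs with which a female finds hosts and perceives mates. A gene model is a stretch of the genome that an annotation treats as a gene. The models here carry numbers only, and no number matched the RefSeq gene table of the species (0 of 22333), so that functions, sequences, lengths and markers of head tissue could not be given. As lengths are unknown, CPM values compare libraries for 1 model and do not rank models by transcript number. Reads of near-identical copies or of overlapping models may be shared, which the counting, as far as it is described, does not resolve.

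Library totals ranged from 9265064 to 13117716 counts, so that a single count was worth 0.0762 to 0.108 CPM and a count of 0 left room for a level of up to 3 counts, or 0.229 to 0.324 CPM. These limits and the intervals below cover counting error only. All libraries of a population differed from each other by more than sampling noise (chi-square of 8.45 to 22.0 per degree of freedom), and each was kept as a sample. In sexual replicate 3 and asexual replicate 1, reads occurred for models that had none in the other pools of the population, and results that rest on these 2 libraries are given with and without them.

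Most models in this range were silent or nearly so. Of the 2333, 585 had no count in any library and 330 had enough counts to be tested. Together, the 234 expressed models took up 1%, 1.33% and 1.04% of all counts of the sexual pools, in the order of their replicate numbers, and 0.953%, 0.972% and 0.795% of those of the asexual pools. The share was highest in sexual replicate 2 and lowest in asexual replicate 3. The 4 models with the most reads made up 0.541% in sexual replicate 2 and 0.182% to 0.330% in the other libraries. Without those 4, the share was 0.613% to 0.792%, again lowest in asexual replicate 3 and highest in sexual replicate 2. A library had reads of 227 to 234 of the 234 models, and sexual replicate 3, the deepest library, had all of them.

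The reads per model were few. The mean over the 6 libraries ranged from 1.37 to 1265.9 CPM with a median of 11.0 CPM, against a median of 29.3 CPM over all 10730 models that met the same expression limit and 7.38 CPM over the 204 expressed models numbered g2001 to g5500. Of the 234, 112 lay under 10 CPM (47.9%), 100 between 10 and 100 CPM and 22 above. Among expressed models of all numbers, 23.2% lay under 10 CPM. Models this low sit close to the limit used to choose them. Just inside it, g20996 had 0.648, 1.66 and 1.37 CPM in the sexual and 3.24, 3.59 and 2 CPM in the asexual libraries, and g21473 had 2.04, 2.86 and 1.98 against 2.16, 1.89 and 1.73 CPM. Just outside it, g22033 had 1.57, 2.59 and 1.75 against 1.30, 1.98 and 2.27 CPM. Also outside, g21364 had 1.95, 2.59 and 1.98 against 0.324, 0.284 and 0.182 CPM. At the limit by number, g20002 (35.7 to 36.0 sexual, 31.6 to 39.9 asexual CPM) and g20005 (2.06 to 3.05 against 0.432 to 1.23 CPM) were the first expressed models inside. The last ones outside were g19994 (53.8 to 61.6 against 52.7 to 54.8 CPM) and g19996 (4.72 to 7.39 against 3.55 to 6.37 CPM).

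How a model met the limit bears on its difference. Of the 234, 173 had at least 2 CPM in all 6 libraries. Another 14 reached it in the 3 sexual libraries alone and 22 in the 3 asexual libraries alone, and the remaining 25 in 3 to 5 libraries of both populations. For a model that entered through 1 population, the limit fixed the direction and kept the populations from overlapping, which favoured a difference. By the test described next, 14 of the 14 and 21 of the 22 differed, beside 87.8% and 83.7% of such models of all numbers. Of the remaining 25, 12 differed (48%), beside 12.8% of such models of all numbers. The 173 models with at least 2 CPM in all 6 libraries did not enter through 1 population, although the choice of the number range still applied to them.

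The populations were compared by edgeR's quasi-likelihood test over all 11700 models with enough counts, and a model was called at a Benjamini-Hochberg adjusted p under 0.05 over all of them. Of the 234 models, 91 were called (38.9%), 47 higher and 44 lower in asexual females. Over all tested models, 12.9% were called, 6.79% higher and 6.06% lower. Among the 173 models with at least 2 CPM in all libraries, 44 were called (25.4%), 20 higher and 24 lower, where 11.7% of all models with that many reads were called. The median absolute log2 fold change was 0.29 over the 234 models and 0.19 over all tested models. For 119 of the 234 (50.9%), every library of 1 population lay above every library of the other, including all 91 called models, beside 32.3% of all tested models. The 119 include the 14 and 22 models that the expression limit itself kept from overlapping, so the 2 shares are not alike. Lower levels in bulk RNA of whole heads can come from fewer cells of a type or from less RNA per cell, which cannot be told apart. Without sexual replicate 3 the calls fell to 65, 34 higher and 31 lower, while 7.06% of all tested models were called. Without asexual replicate 1 they fell to 66, 37 higher and 29 lower, with 8.55% of all. The fall was not limited to these 2 libraries. Without asexual replicate 2 there were also 66 calls, 35 higher and 31 lower, with 7.26% of all. Leaving out sexual replicate 1, sexual replicate 2 or asexual replicate 3 gave 84, 82 and 84 calls. The share of all tested models called was then 11.2%, 13.4% and 13.4%. Without both asexual replicate 1 and sexual replicate 3, there were 60 calls, with 5% of all tested models called.

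Differences were large for many of the called models. More than 2-fold lay between the populations for 65 of the 91, in 34 with more and in 31 with less RNA in asexual females, which is 27.8% of the 234 models. Over all tested models, 4.53% were called with more than 2-fold. Of the 65, 14 had reached 2 CPM in the sexual libraries alone and 21 in the asexual libraries alone. The expression limit fixed the direction of these models and favoured a large difference, but did not set its size. Another 11 of the 65 were among the 25 models at 2 CPM in 3 to 5 libraries of both populations. They were 44% of those 25, beside 11.2% of such models of all numbers. Among the 173 models with at least 2 CPM in all libraries, 19 were called with more than 2-fold (11%), beside 2.09% of all models with that many reads. Between 4-fold and 16-fold lay 17 of the 91 (18.7%), beside 8.24% of all called models. Another 20 exceeded 16-fold (22%), 13 higher and 7 lower, beside 5.59% of all called models, and 1 of these 20 had at least 2 CPM in all libraries. The median called model differed by 3.16-fold, against 1.63-fold over all 1504 called models. Differences under 1.5-fold made up 12 of the 91 (13.2%, beside 39.6% of all called models), and those between 1.5-fold and 2-fold 14 (15.4%, beside 25.1%).

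**Figure D1:**
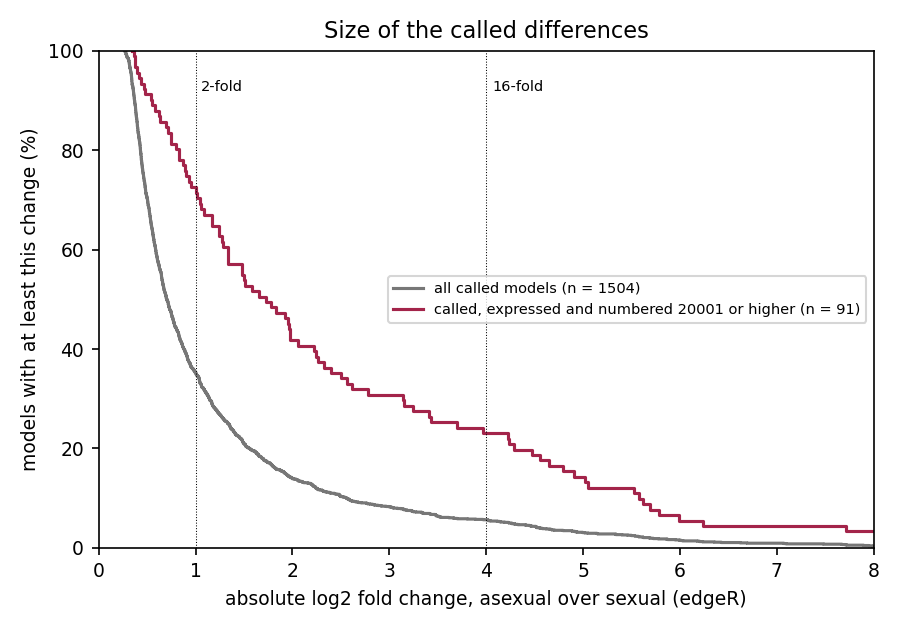
Share of called models (y axis, percent) with at least the absolute log2 fold change on the x axis, for all 1504 called models and for the 91 called models numbered from g20001 on. At 2-fold (log2 of 1) the upper curve holds 65 of its 91 models, and at 16-fold 20 of 91. Fold changes of models without reads in 1 population depend on the prior count of the fit and are no bounds, and the axis ends before the widest of them.

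The called models ranged from near absence in 1 population to a slight shift in both. A model was counted as on/off when each library of 1 population had at least 20 counts and none of the other reached 3, among called models. By this rule 6 of the 91 were on/off, 4 with 0 to 2 counts per asexual library and 2 with 0 to 2 counts per sexual library. They were 6.59% of the 91 called models, beside 1.53% of all called models (23 of 1504), and 2.56% of the 234, beside 0.197% of all tested models. Another 18 called models kept some reads in the lower population, at under 10% of the mean of the other, 13 higher and 5 lower in asexual females. They were 19.8% of the 91, beside 5.59% of all called models. All 6 on/off models and most of the 18 had met the expression limit in 1 population alone, which favoured these patterns. Nothing is read from the shares of either group. The other 67 (73.6%) were graded, with the lower population at 10% or more, 32 higher and 35 lower, and their median difference was 2.36-fold. Among all called models 92.9% were graded in this sense, with a median of 1.58-fold. The 10% limit was chosen after the values were seen.

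**Figure D2:**
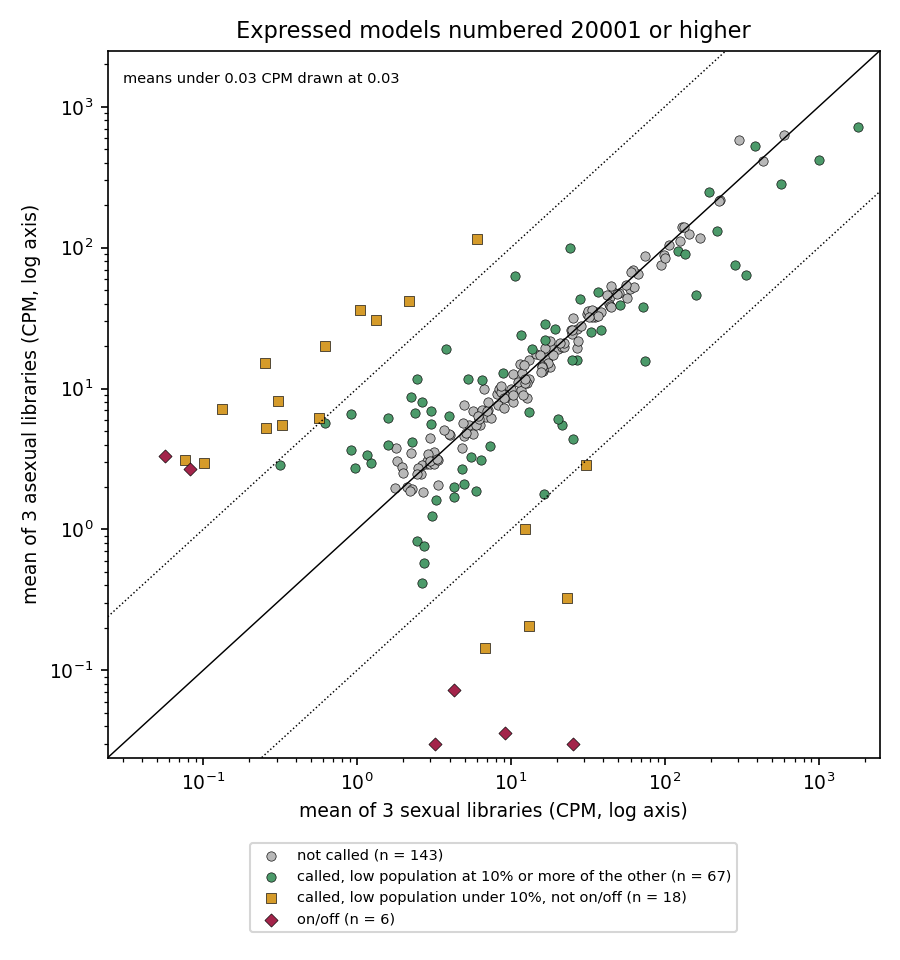
Mean CPM in the 3 sexual (x axis) and 3 asexual (y axis) libraries for the 234 models, both on log axes, with the line of equality and dotted lines at 10-fold. The 143 models that were not called lie along the diagonal, 1 of them more than 2-fold from it, 67 graded models lie off it inside the dotted lines, and the 18 models under 10% and the 6 on/off models lie outside them.

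The widest of the on/off models was g20947, with 22.0, 17.5 and 36.0 CPM in the sexual libraries and 0 counts in each asexual library. Against 3 counts per asexual library it was at least 85.7-fold lower in asexual females (edgeR adjusted p = 3.56e-05). Gene model g21414 had 84, 104 and 133 counts in sexual pools and 1, 0 and 0 in asexual pools. Its counts, scaled to library size, were 284.9 times higher in sexual females, with exact 95% bounds from counting error of 50.8 and 11288.1 (adjusted p = 4.56e-06 in edgeR). The single read was in asexual replicate 1, and without that library the model was at least 33.0-fold lower in asexual females. Gene model g21832 had 72, 35 and 37 sexual counts and 2, 0 and 0 asexual counts, a ratio of 63.9 (bounds 17.4 and 532.7; adjusted p = 0.000582 in edgeR). Its sexual libraries spread over 2.82 to 6.67 CPM, and its asexual reads were again in replicate 1 alone, without which it was at least 15.2-fold lower. The last of this group, g20349, had 38, 25 and 50 sexual counts and no asexual count, at least 11-fold lower by the same limit.

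In the other direction, both on/off models had few reads. Gene model g22130 had 25, 40 and 39 counts in the asexual libraries and 0, 1 and 1 in the sexual libraries, a ratio of 58.6 with bounds of 15.8 and 490.2 (adjusted p = 5.08e-05 in edgeR). Gene model g20610 had 21, 27 and 35 asexual counts against 0, 1 and 2 sexual counts, a ratio of 31.2 (bounds 10.3 and 154.2; adjusted p = 0.000174 in edgeR). Without sexual replicate 3 its ratio was 58.2, with bounds of 10.2 and 2326.3. Both models lay between 2.27 and 3.78 CPM in every asexual library, just above the expression limit.

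Reads in the lower population were uneven among its libraries. Over the 15 on/off or under-10% models that were higher in asexual females, the 484 sexual counts divided into 100, 97 and 287 by replicate number, or 3.05%, 2.95% and 7.20% of the summed asexual CPM. Sexual replicate 3 had the highest sexual level in 13 of these 15 models. Gene model g22290 alone held 93 counts in sexual replicates 1 and 2 together, and 157 in sexual replicates 2 and 3 together. Over the 9 such models that were lower in asexual females, the 138 asexual counts divided into 74, 33 and 31. These were 6.24%, 2.44% and 2.20% of the summed sexual CPM, and asexual replicates 2 and 3 each had no count in 7 of the 9. Gene model g21765 alone held 88 of the 138 counts (26, 32 and 30), and g21556 held 28, all in asexual replicate 1. The summed shares of both directions thus rest largely on few models. On/off models rose in number from 6 to 10 when sexual replicate 3 was left out, to 10 when asexual replicate 1 was, and to 14 when both were. Without any other single library they stayed at 6. The rule asks for few counts in every library of a population, so leaving out a library with residual reads can only ease that condition. The rise was thus built into the choice of these libraries. The part of these 2 libraries in the residual reads was not tested.

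Several models under 10% changed from absence to a low level with a single library. Gene model g22032 had 162, 163 and 144 asexual counts and 0, 0 and 10 sexual counts. Gene model g21514 had 285, 219 and 296 sexual counts and 9, 0 and 0 asexual counts. Without sexual replicate 3, no sexual read of g22032 was left (at least 55.3-fold higher in asexual females), and without asexual replicate 1, no asexual read of g21514 (at least 82.9-fold lower). Gene model g21556, with a 2.89-fold range between its sexual libraries, had 20.3, 9.61 and 7.01 CPM in the sexual and 3.02, 0 and 0 CPM in the asexual libraries. Its log2 fold change was -3.70 ± 0.80 (SE; edgeR adjusted p = 0.0124), DESeq2 did not call it (adjusted p = 0.379), and without asexual replicate 1 it had no asexual read and was at least 44.2-fold lower. These models, other than g21556, were chosen after their values were seen.

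**Figure D3:**
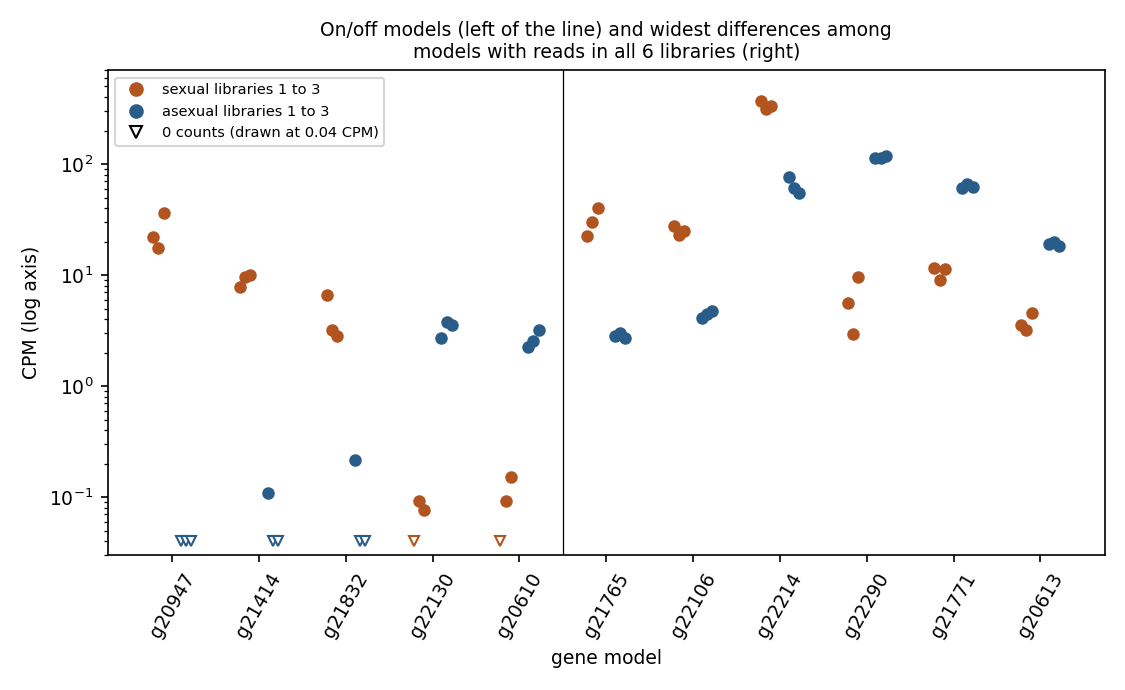
CPM on a log axis for each sexual (brown) and asexual (blue) library of 5 on/off models, left of the line, and of the 6 models with the widest called differences among those with at least 2 CPM in all libraries, right of it. Open triangles mark 0 counts. On the right the populations stand apart by 5.02-fold to 18.8-fold, with reads in every library.

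Wide differences also occurred among models with at least 2 CPM in all 6 libraries, where the expression limit forced none. Gene model g22290 had 5.65, 2.96 and 9.53 CPM in the sexual and 114.0, 114.4 and 117.7 CPM in the asexual libraries, with 4.23 ± 0.25 (SE) as the log2 fold change and an adjusted p of 3.76e-06 in edgeR. Its asexual libraries were nearly equal while its sexual libraries differed by more than 3-fold. Gene model g21771 had 11.7, 9.05 and 11.3 against 60.3, 65.6 and 62.3 CPM, with 2.56 ± 0.11 (SE) as the log2 fold change and an adjusted p of 7.48e-07 in edgeR. Gene model g20613 had 3.52, 3.23 and 4.57 against 19.1, 19.8 and 18.4 CPM, with 2.33 ± 0.16 (SE) as the log2 fold change and an adjusted p of 8.12e-06 in edgeR. In each of the 3 models the lowest asexual library was more than 4 times the highest sexual one.

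In the other direction, g21765 had 22.7, 29.8 and 39.9 CPM in the sexual and 2.81, 3.02 and 2.73 CPM in the asexual libraries, with -3.43 ± 0.23 (SE) as the log2 fold change and an adjusted p of 8.12e-06 in edgeR. Gene model g22106 had 27.8, 22.9 and 25.2 against 4.10, 4.44 and 4.73 CPM, with -2.50 ± 0.14 (SE) as the log2 fold change and an adjusted p of 2.34e-06 in edgeR. Gene model g22214 had 370.4, 315.0 and 331.5 against 76.2, 61.3 and 54.7 CPM, with -2.40 ± 0.13 (SE) as the log2 fold change and an adjusted p of 1.72e-06 in edgeR. With 3411 to 4349 counts in its sexual libraries, g22214 had the most reads of the 6. None of these 6 models lost its call under any of the 13 alternatives run on them.

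The smallest called differences were of another kind. Gene model g21312 had 115.5, 120.2 and 128.4 CPM in the sexual and 94.0, 95.1 and 96.7 CPM in the asexual libraries (log2 fold change -0.34 ± 0.08, SE). Gene model g20718 had 53.5, 46.7 and 53.7 against 39.0, 38.7 and 40.5 CPM (-0.38 ± 0.09, SE). On the side of higher levels in asexual females, g20762 had 203.9, 197.5 and 182.2 against 258.9, 239.8 and 247.9 CPM (0.36 ± 0.09, SE), and g21759 had 36.3, 38.1 and 36.7 against 54.1, 45.9 and 44.6 CPM (0.38 ± 0.10, SE). The populations did not overlap in any of the 4. The edgeR adjusted p lay between 0.0175 and 0.0255, and every one of the 4 lost its call when either sexual replicate 3 or 1 of asexual replicates 1 and 2 was left out.

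The 143 models that were not called differed little. Their median difference was 1.11-fold, 107 of them were within 1.2-fold, and 1 exceeded 2-fold. The populations overlapped in 115 of the 143, and 22 of the 143 had an unadjusted p under 0.05. Among those with a mean of at least 10 CPM, the smallest differences belonged to g21081, with 11.0, 11.2 and 11.1 CPM in the sexual and 13.2, 10.9 and 9.37 CPM in the asexual libraries, and to g20023, with 28.9, 24.5 and 27.1 against 25.5, 25.1 and 28.9 CPM. Their log2 fold changes were 0.01 ± 0.15 and -0.01 ± 0.11 (SE).

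Read level and size of difference went together in part. Of the 112 models under 10 CPM, 51 were called, 43 of them over 2-fold. Of the 100 models between 10 and 100 CPM, 29 were called, 16 over 2-fold, and of the 22 above 100 CPM, 11 were called, 6 over 2-fold. On/off models and models under 10% made up 16 of the 112, 8 of the 100 and 0 of the 22. Among expressed models of all numbers they were 2.45%, 0.288% and 0.05% at these levels. Over expressed models of all numbers, the share called was 14.3% under 10 CPM, 12.3% between and 13.8% above 100 CPM, and the share called over 2-fold was 9.93%, 2.23% and 1.80%. Level also went with the way a model met the expression limit. Models with at least 2 CPM in all 6 libraries were 57 of the 112, 94 of the 100 and all of the 22. The mean over all libraries is also lowered when either population is near 0. A link of level alone with the size of difference was therefore not tested.

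The models with the most reads varied widely between pools of 1 population. Gene model g20408 had 1048.0, 2798.9 and 1580.5 CPM in the sexual and 747.6, 967.6 and 452.6 CPM in the asexual pools. Gene model g20932 had 610.3, 1572.1 and 832.2 against 450.9, 528.4 and 277.8 CPM. In both models sexual replicate 2 was the highest library by far, asexual replicate 2 was the highest of its population and asexual replicate 3 the lowest. The log2 fold changes were -1.33 ± 0.34 and -1.27 ± 0.32 (SE; edgeR adjusted p = 0.0284 and 0.0278). Neither was called by DESeq2 (adjusted p = 0.0783 and 0.0826), and both lost their calls when sexual replicate 3 or either of asexual replicates 1 and 3 was left out, g20408 also without sexual replicate 2, where its log2 fold change was -0.85.

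The same order of pools appeared in 2 further models, chosen after their values were seen. Gene model g20154 had 405.7, 852.1 and 449.8 CPM in the sexual and 282.5, 344.2 and 216.8 CPM in the asexual libraries. Gene model g20409, which follows g20408 in the table, had 188.1, 481.5 and 191.6 against 71.8, 85.2 and 70.4 CPM. Its populations were further apart than those of g20408, with -1.92 ± 0.32 (SE) as the log2 fold change and an adjusted p of 0.00315 in edgeR.

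Other models with many reads behaved differently. Gene model g20664 had 613.5, 146.3 and 153.8 CPM in the sexual and 744.9, 744.7 and 252.8 CPM in the asexual libraries, so that sexual replicate 1 stood with asexual replicates 1 and 2. It was not called (log2 fold change 0.94 ± 0.53, SE; edgeR adjusted p = 0.277), but without sexual replicate 1 its log2 fold change was 1.93 and it was called (adjusted p = 0.0110), as it was with no low-count filter (adjusted p = 0.0491). Gene model g20681 had 619.1, 650.6 and 514.6 against 706.2, 618.9 and 563.0 CPM, with overlapping populations (log2 fold change 0.09 ± 0.12, SE). Gene model g20212 had 397.3, 392.0 and 375.1 against 553.3, 492.2 and 528.1 CPM, with no overlap and little spread within either population (0.44 ± 0.09, SE; edgeR adjusted p = 0.0123). Its call was lost without sexual replicate 3 (adjusted p = 0.0745).

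**Figure D4:**
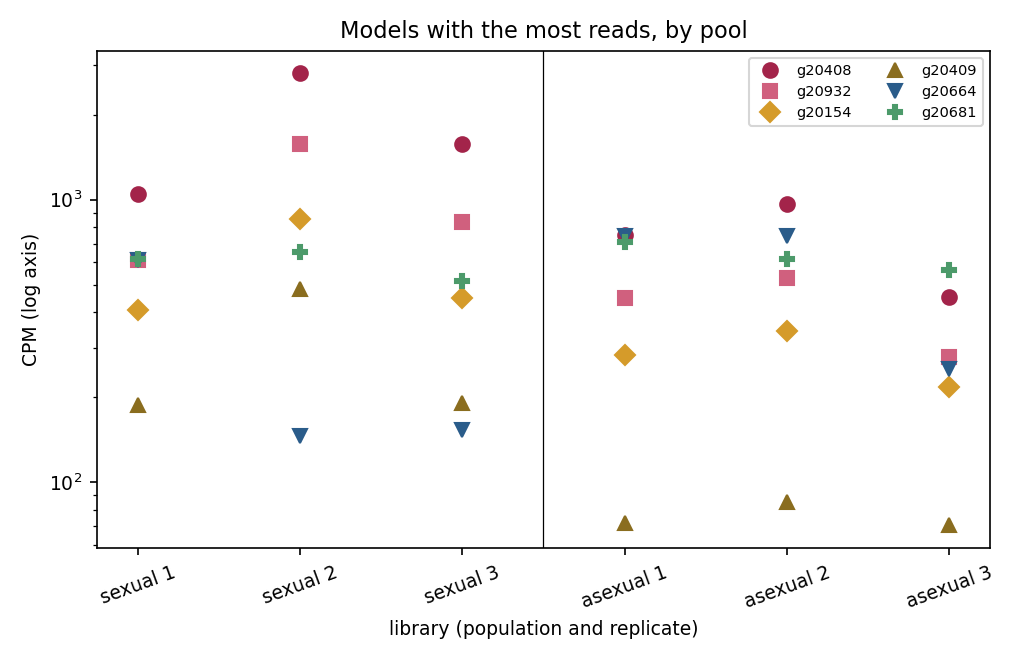
CPM on a log axis of 6 models with many reads in each of the 6 libraries, with the populations on either side of the line. Gene models g20408, g20932, g20154 and g20409 peak in sexual replicate 2, g20664 is high in sexual replicate 1 and asexual replicates 1 and 2, and g20681 lies between 514.6 and 706.2 CPM throughout.

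Spread between pools of 1 population was described over the 173 models with at least 2 CPM in all libraries. Their median coefficient of variation was 12.2% in sexual and 10.9% in asexual females, beside 9.63% and 8.70% over all 10053 such models. Above 100 CPM the medians were 13.8% and 11.5% over 22 models, beside 8.26% and 7.28% over 2000 models. Under 10 CPM, where counting error weighs more, they were 16% and 15.1% over 57 models, beside 14.8% and 14.8%. The highest sexual library exceeded the lowest by more than 2-fold in 8 of the 173 models (4.62%, beside 1.35% over all such models). In asexual females 3 of 173 did so (1.73%, beside 1.32%). The 128 models numbered g2001 to g5500 with that many reads had median coefficients of variation of 13.5% in sexual and 11.7% in asexual females. Of these, 7.03% and 2.34% exceeded 2-fold between pools.

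The place of these models in the table followed an order of its own. From row 9787 on, models numbered from g20001 on rose in number without a single step back, but they were broken into 522 runs of 1 to 19 models by models with lower numbers. They continue an ascending series that runs beside series of lower numbers. Between row 9787 and the last expressed model at row 16352, 2306 rows had numbers from g20001 on, 348 had numbers between 5133 and 5480, and 3912 had other numbers, from 197 to 12842. The numbers 22314 to 22412 are not analysed here, and no model numbered above them met the expression limit.

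**Figure D5:**
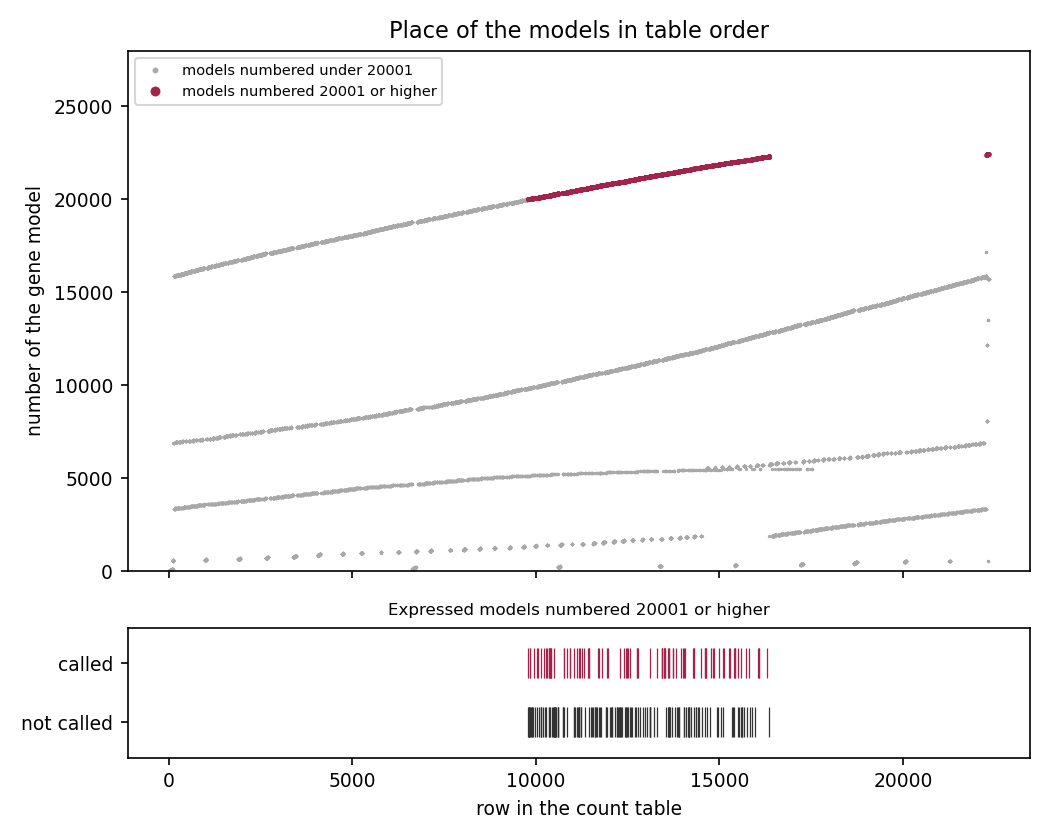
Number of each gene model (y axis) against its row in the count table (x axis), with models numbered from g20001 on in red, and below it the rows of the 91 called and 143 not called models. The numbers form several ascending series side by side, and both called and not called models are spread over rows 9793 to 16352.

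Models of the interleaved series differed in how often they met the expression limit. In this stretch of the table, 10.1% of models numbered from g20001 on were expressed, 8 of 348 models with numbers between 5133 and 5480 (2.30%), and 67.5% of the 3912 others. Of the expressed models, 91 of 234 (38.9%), 4 of 8 (50%) and 288 of 2642 (10.9%) were called. Over the whole table, 122 of the 204 expressed models numbered g2001 to g5500 were called (59.8%), a higher share than from g20001 on. Along the ascending series itself the share of expressed models fell from 69.0% at g16001 to g16500, over 43.6% at g18001 to g18500 and 16.6% at g19501 to g20000, to 7.21% from g22001 on. The share of expressed models that were called was 10.4% to 18.9% in blocks of 500 up to g20000 and 30.8% to 45.8% in the blocks after it. As the start at g20001 was set by such shares, this step is a description of that choice. Within the range, each block of 250 numbers up to g22250 held 18 to 40 expressed and 6 to 16 called models, with both directions in every one of them.

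Expressed models of this range rarely stood side by side. Of 468 rows next to the 234 models, 348 held another model numbered from g20001 on, 64 held models numbered g2001 to g5500 and 56 other models. Only 112 of the 468 neighbours (23.9%) were expressed, and 137 of the 234 models (58.5%) had no expressed neighbour. Next to expressed models outside both low and high number ranges, 74.4% of neighbours were expressed. The longest unbroken run had 4 expressed models. One such run, g20120 to g20123, had log2 fold changes of -0.23, 0.34, -0.10 and 0.47 in table order, and only its last model was called (edgeR adjusted p = 0.0141, and 0.0588 without asexual replicate 2).

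The 234 models formed 38 adjacent pairs, of which 9 were called in the same direction and 2 in opposite directions. In 13 pairs 1 model was called and in 14 neither was. The same-direction pairs were 23.7% of the 38, beside 1.63% of all 8738 pairs of tested models in adjacent rows, a gap that includes the higher share of called models. Among pairs with both models called, 9 of 11 (81.8%) had the same direction, beside 142 of 191 (74.3%) over all tested models. Whether the models of a pair share reads was not tested. The fold changes within the 9 pairs differed by 0.13 to 2.57 on the log2 scale, with a median of 0.27.

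Among models that met the expression limit, the longest run called in 1 direction was g21343, g21344 and g21345, all lower in asexual females. Gene model g21343 had 5.93, 4.80 and 4.19 CPM in the sexual and 2.37, 2.17 and 1.73 CPM in the asexual libraries. Gene model g21344 had 5.19, 3.60 and 4.12 against 1.62, 1.80 and 2.55 CPM, and g21345 had 14, 12.7 and 12.7 against 8.20, 6.14 and 6.01 CPM. Their log2 fold changes lay close together, at -1.24 ± 0.24, -1.09 ± 0.26 and -0.95 ± 0.16 (SE; edgeR adjusted p = 0.00646, 0.0199 and 0.00291). The call of g21344 was lost when any of sexual replicates 1 and 3 and asexual replicates 1 and 2 was left out, and the others kept theirs in every alternative that gave them a value.

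Further pairs, named after their values were seen, included graded and near-absent models. Gene models g22213 and g22214 fell together, by 2.24 ± 0.11 and 2.40 ± 0.13 on the log2 scale (SE), with 80.1, 65.8 and 77.8 sexual and 16.6, 14.2 and 16.4 asexual CPM in g22213. Gene models g20348 and g20349 were both near absent from asexual females, with 4, 0 and 0 asexual counts in g20348 against 83, 55 and 99 sexual counts. Gene models g21095 and g21096 were both low in sexual females, with 5, 6 and 9 against 62, 67 and 62 counts in g21095 and 2, 5 and 4 against 22, 29 and 38 counts in g21096.

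Neighbours could also differ sharply. In the 5 adjacent rows of g21363 to g21367, chosen after their values were seen, all models were called, the first and last higher and the 3 between them lower in asexual females. Gene model g21366 had 32, 23 and 37 counts in the sexual and 3, 4 and 6 in the asexual libraries. Its next neighbour g21367 had 1, 3 and 8 against 62, 61 and 46 counts, a log2 fold change of 3.97 ± 0.41 beside -2.61 ± 0.35 (SE). Gene model g21364, which missed the expression limit, had 21, 28 and 26 against 3, 3 and 2 counts. The pairs that follow were also chosen after their values were seen. Gene model g22022 had 2, 4 and 17 sexual and 157, 258 and 206 asexual counts, while its neighbour g22023 was slightly lower in asexual females, with 35.3, 37.2 and 42.8 against 29.1, 23.9 and 25.4 CPM. Gene model g20448 had 3, 2 and 6 sexual and 81, 88 and 83 asexual counts, and its neighbour g20449 had 19.1, 14.1 and 17.7 against 17.6, 16 and 16.7 CPM, with overlapping populations.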

How the data were processed

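The values are raw counts of reads for each gene model in 6 libraries, as the authors deposited them in 1 table. Per the labels' protocols, polyadenylated RNA of pooled heads was made into strand-marking libraries. Trimmomatic, HISAT2 and DESeq2 appear in the submitters' processing notes, with no version and no role. Which tool counted the reads, with which strand option, on which build and annotation, is not given in the sources. Columns were matched to libraries by the ends of their source names, and groups and replicate numbers were taken from the titles.

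CPM is the count divided by the column total and multiplied by 1000000. The test was edgeR 4.0.16 (limma 3.58.1, R 4.3.3) on all models, with TMM factors, default filterByExpr and population as the only term. Fold changes are asexual over sexual, and standard errors follow from each fold change and its F statistic. Alternatives were other scaling, filters, DESeq2 1.42.0, a replicate block, libraries left out and other limits for choosing models. Count ratios have exact binomial intervals (SciPy 1.17.1).

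The models, patterns and alternatives were chosen with earlier results of these data known. Models were named by rule: the 3 on/off models per direction with the most reads, the 3 widest per direction among those with at least 2 CPM in all libraries, the 2 smallest called differences per direction, the 4 with the most reads, the 2 smallest differences not called among models with a mean of at least 10 CPM, those beside each limit, the longest runs of models within the expression limit, and the 2 widest ranges of log2 CPM within a population among models with a mean of at least 10 CPM in that population. Others are marked as chosen after their values were seen, except g20349, which completes the on/off models lower in asexual females.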

Additional observations from a re-analysis of the deposited data

How the results depend on the processing

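The 91 called models, 47 higher and 44 lower in asexual females, became 79 to 99 calls under other scaling factors, with no low-count filter and by DESeq2, and 78 to 91 of these were among the 91, all with the same sign. Over all tested models, 10.4% to 13.1% were called in these fits. With 1 library left out at a time, calls ranged from 65 to 84, those higher from 34 to 45, those lower from 29 to 43 and on/off models from 6 to 10. The share of all tested models called then ranged from 7.06% to 13.4%. Without both sexual replicate 3 and asexual replicate 1, which leaves 2 pools a population, 60 were called, 28 of them lower, and 14 were on/off. A filter of 5 CPM in 3 libraries left 29 lower and 2 on/off models, since it removed models, and so did choosing models at 5 CPM (29 and 2). Models at 2 CPM in all 6 libraries gave 44 calls, 20 higher and 24 lower, and by construction 0 on/off models. On/off models numbered 2 when 0 counts were required and 21 by a 16-fold ratio of summed CPM. A fit with the replicate block called 75 models, of which 74 were among the 91. It called 9.96% of all tested models. Deviations from the group means correlated between same-numbered libraries at -0.246, 0.0205 and 0.0553, and 0 libraries correlated best with their own number. Some other pairs correlated more, such as sexual 2 with asexual 1 (0.34), sexual 1 with asexual 3 (0.319) and sexual 2 with asexual 3 (-0.356). Deviations sum to 0 within a population, so these values depend on each other and do not settle what the numbers stand for. The numbers are used as sample names, and variation shared by pools of both populations was not tested. Of 385 values of the 30 models named by rule, 342 kept their side of the threshold, 41 lost a call, 2 gained one and 0 reversed. Depth limits folds of models with few reads, where 3 counts are 0.229 to 0.324 CPM.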
